A study of Ovis aries with 9 samples.

Results

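The set described here holds the transcripts of the main heat shock proteins and of HSF1, the transcription factor that switches their genes on. Its 10 members were listed by symbol (HSF1, HSPA8, HSPA4, HSPH1, HSP90AA1, HSP90AB1, HSPB1, HSPD1, HSPE1 and DNAJB1) and matched to the gene names of the FPKM table, which holds 39157 genes. HSPA8, HSPH1, HSP90AA1, HSP90AB1, HSPB1 and HSPD1 had 1 row each, so 6 of the 10 were found by symbol, and all 6 passed the filter on low values that kept 25531 genes. HSF1, HSPA4, HSPE1 and DNAJB1 had no row under their symbols and are not analysed here. Genes without a symbol were not searched for them. Although the set is labelled cytosolic, HSPD1 codes for the mitochondrial chaperonin HSP60 and is described as such.

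Granulosa cells (GCs) line the ovarian follicle and feed the oocyte. They came from small follicles of thin-tailed Han ewes aged 1 to 1.5 years. Follicle suspensions from many ovaries were pooled before culture. All cells were kept for 8 h without glucose and serum and were then cultured for 24 h in 1 of 3 glucose doses, namely 0 mM in CON, 8.4 mM in LOW and 33.6 mM in HIGH. Each group had 3 libraries of rRNA-depleted total RNA, so the p-values measure the spread between these samples of pooled cells, which may be technical, and not that between animals. CON cells received no glucose for the whole period, and both LOW and HIGH lie above the follicular glucose range that the study's methods name.

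Heat shock proteins are molecular chaperones that bind unfolded or partly folded proteins. HSP70 proteins such as HSPA8 bind short hydrophobic stretches and are reloaded by nucleotide exchange factors such as HSPH1, J-domain proteins such as DNAJB1 stimulate their ATPase, and HSP90 proteins complete the folding of kinases and steroid receptors. Small heat shock proteins such as HSPB1 hold unfolded proteins without ATP, and HSP60 with HSP10 folds proteins inside mitochondria. HSF1 is held inactive by chaperones and is released when unfolded proteins accumulate, after which the inducible family members rise. HSPA8 and HSP90AB1 are known as the constitutive forms, and HSP90AA1 and HSPB1 as more strongly inducible ones. In hormone-responsive cells such as GCs, HSP90 holds steroid receptors in a state able to bind ligand.

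The values are FPKM (fragments per kilobase of transcript, relative to the fragments of the library), scaled so that the libraries share the same median over 11689 expressed genes, with scale factors of 0.939 to 1.11. Depth, read from the factor that links FPKM to the deposited count-like values, was 48.0 to 71.3 fragments per kilobase at an FPKM of 1, so that counting error for the members was at most 2.15%. TXNIP, a gene known to rise with glucose, served as a check of the labels. Its scaled FPKM was 68.5, 88.7 and 105 in CON, 213, 226 and 233 in LOW and 179, 205 and 216 in HIGH, with no overlap between CON and either glucose group, although its adjusted p-values (0.123 and 0.179) did not pass the threshold. Of 10 granulosa markers, 7 had a row. CYP11A1, the first enzyme of steroid synthesis, was at 141 to 147 in HIGH against 159.7 to 202 elsewhere, and the inhibin subunit INHA at 8.53 to 10.9 in HIGH against 11.1 to 20.2, while the FSH receptor FSHR reached no more than 0.577. The transcription factor GATA4 was at 5.13 to 9.74 in HIGH against 4.01 to 4.70 in LOW and 3.81 to 7.09 in CON, and the activin subunit INHBA at 4.12 to 5.10 in all libraries. For HIGH versus CON, 5 of the 7 had a negative log2 fold change, where 43.7% of all tested genes did. The stromal and smooth muscle markers, 7 of 7 with a row, had summed levels of 2532 to 4166 (CON), 3065 to 3396 (LOW) and 2070 to 3428 (HIGH), mostly from TAGLN and ACTA2, and COL1A1 was higher in each HIGH library (38.8 to 126) than in any other (16.1 to 31.5). For HIGH versus CON, TAGLN, DES, ACTA2 and DCN had negative log2 fold changes (-0.49, -0.21, -0.12 and -0.10), and COL1A1, MYH11 and PDGFRA positive ones (1.54, 0.84 and 0.74). The endothelial marker CDH5 and the oocyte marker BMP15 were listed at 0 in all 9 libraries. The endothelial marker TIE1 was at 0.348 to 0.725 and the oocyte marker GDF9 at 0.532 to 0.871. PECAM1, VWF and ZP2, of the same lists, stayed below 0.1. Of the immune markers, CD68 was at 7.41 to 13.3 and CD14 had a mean of 6.79 over the libraries. PTPRC and CD3E reached no more than 0.694 and 0.233. RNA from other cell types is thus not excluded. Marker levels were low for endothelium and oocyte but high for stroma and smooth muscle. Genes of small RNAs held a share of the summed FPKM that spanned 52.1% to 68.6% among CON libraries, 67.0% to 72.1% among LOW libraries and 30.3% to 68.2% among HIGH libraries. In bulk RNA, fewer cells of a type and less RNA per cell cannot be told apart.

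All 6 measured members were abundant in every group. By mean FPKM over the 9 libraries, they lay between the 93.1st and the 99.1st percentile of the genes with a symbol. HSP90AA1, the inducible cytosolic HSP90, was the highest member in 9 of 9 libraries. It took rank 99 among the genes with a symbol other than those of small RNAs. HSPA8, HSPB1 and HSP90AB1 followed at ranks 161, 170 and 173, and their order changed from library to library, so these 3 neighbours did not differ beyond their spread. HSPD1 and HSPH1, at ranks 795 and 805, formed the lower pair and also changed places between libraries. The 6 members summed to an FPKM of 899.9 ± 63.0 in CON, 910.1 ± 31.5 in LOW and 835 ± 43.1 in HIGH (SD, n = 3).

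**Figure D1:**
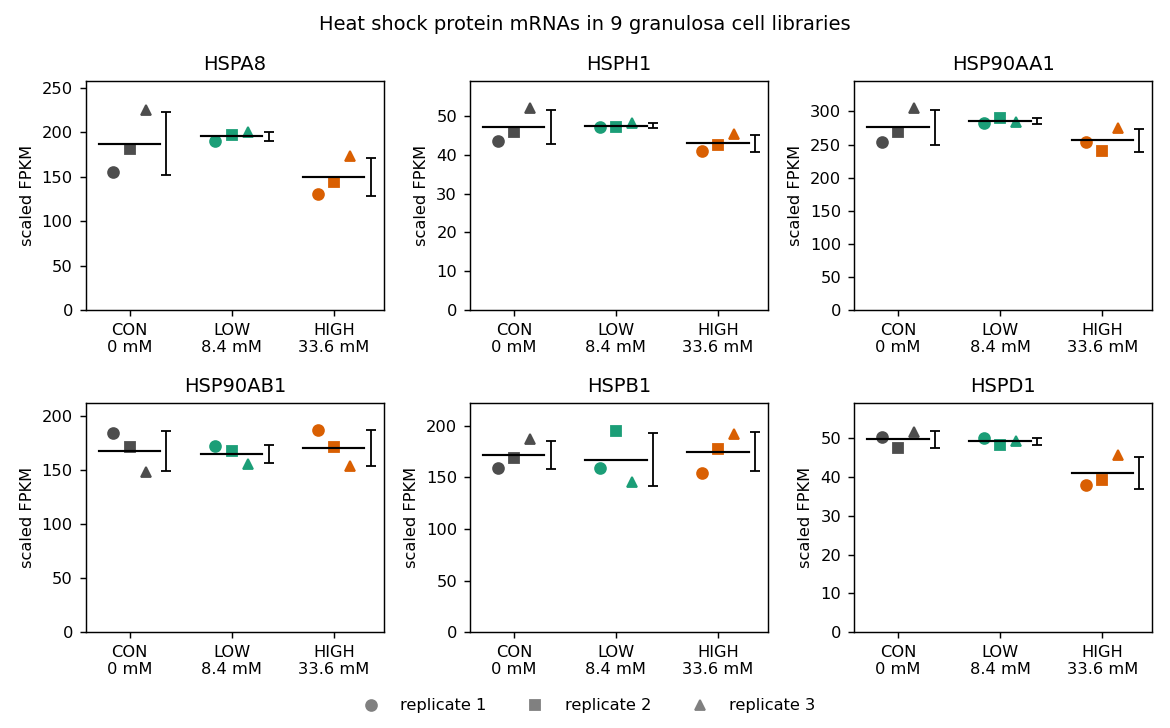
Scaled FPKM (vertical axis, linear from 0) of the 6 measured heat shock protein genes in CON, LOW and HIGH, with 1 symbol per library, a line at the group mean and a bar of 1 SD beside it (n = 3). The HIGH libraries lie lowest for HSPD1 without overlap with either group, and for HSPA8, HSPH1 and HSP90AA1 without overlap with LOW, while the groups overlap throughout for HSP90AB1 and HSPB1.

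The first question was whether any member differed between glucose groups. None of the 6 passed the threshold (adjusted p-value under 0.05 over all tested genes and an absolute log2 fold change above 1) in any of the 3 comparisons, against a background of 0.00783% of all tested genes in each. At an unadjusted p under 0.05, limma gave 0 members for LOW versus CON, 1 for HIGH versus CON (HSPD1) and 2 for HIGH versus LOW (HSPA8 and HSPD1), where the background was 1.95%, 6.58% and 7.56%. With 1 library left out, the count for HIGH versus CON was 0 without CON replicate 3, HIGH replicate 1 or HIGH replicate 2 and reached 2 without HIGH replicate 3, and that for HIGH versus LOW was 0 without CON replicate 2, any LOW replicate, HIGH replicate 1 or HIGH replicate 2. Without CON replicate 1 the HIGH versus CON count stayed at 1, but the member changed. It was HSPA8 (limma unadjusted p = 0.0225) and not HSPD1 (limma unadjusted p = 0.0502). The 95% intervals of all 18 differences lay between -0.77 and 0.45 on the log2 scale, so a change of 2-fold in either direction lay outside each of them. The median log2 fold change of the members was -0.00 for LOW versus CON, -0.12 for HIGH versus CON and -0.15 for HIGH versus LOW. Over all tested genes it was 0.01, 0.07 and 0.06, and over the 4057 genes with a symbol and a mean FPKM of 10 or more it was 0.01, -0.09 and -0.09. Abundant genes as a whole thus had negative medians in HIGH too.

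Without regard to p-values, 4 of the 6 members (HSPA8, HSPH1, HSP90AA1 and HSPD1) had all 3 HIGH libraries below all 3 LOW libraries, where this held for 7.68% of all tested genes and for 15.5% of the abundant ones. Against CON, only HSPD1 among the 6 had this pattern on scaled values (background 4.11%, abundant genes 6.29%). On FPKM as deposited, 4 members had it against CON (background 7.9%, abundant genes 16.5%) and 4 against LOW (background 6.21%, abundant genes 12.6%), in each case HSPA8, HSPH1, HSP90AA1 and HSPD1. No member lay higher in HIGH without overlap, where the background was 5.24% against CON and 11.0% against LOW. No member separated LOW from CON on either scale, where 3.06% of all tested genes lay lower and 3.11% higher in LOW without overlap on scaled values. On deposited FPKM, 7.81% of all tested genes and 13.7% of the abundant ones lay lower in LOW. The LOW libraries lay closer together than the libraries of CON or HIGH for each member except HSPB1.

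**Figure D2:**
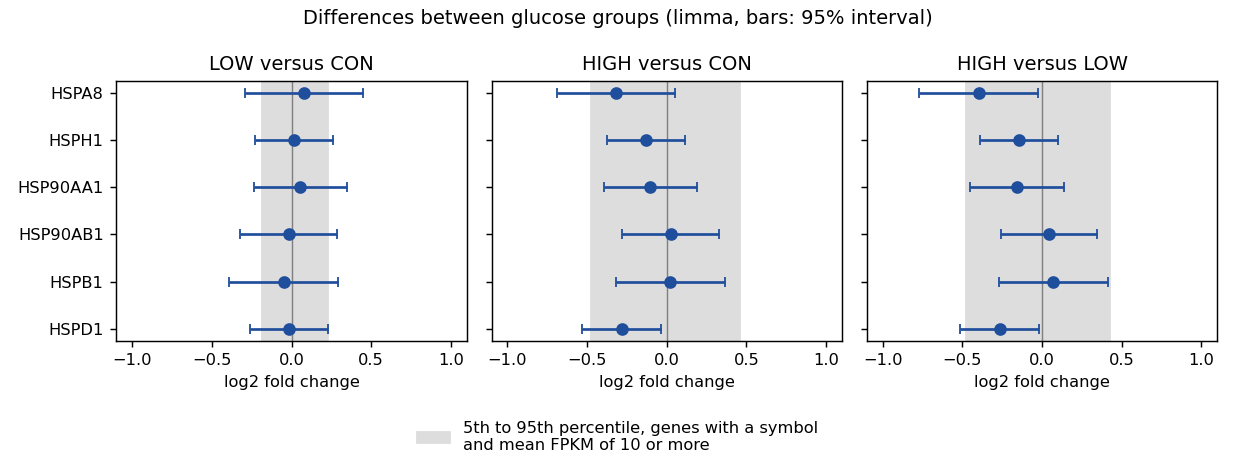
Log2 fold change (horizontal axis) of each member in the 3 comparisons, with points for the limma estimate and bars for its 95% interval. The grey band spans the 5th to the 95th percentile of genes with a symbol and a mean FPKM of 10 or more. Every interval lies between -0.77 and 0.45, and the 3 intervals that leave out 0 are those of HSPD1 in both HIGH comparisons and of HSPA8 in HIGH versus LOW.

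HSPA8 (ENSOARG00000000142, chromosome 15, 33230597 to 33237578, in the coordinates of the deposited files) codes for HSC70, the constitutive HSP70 that folds new proteins and strips clathrin coats. Its scaled FPKM was 156, 181 and 225 in CON, 190.2, 197 and 200.02 in LOW and 131, 144 and 173 in HIGH. The HIGH libraries lay below all LOW libraries and overlapped CON, whose own 3 libraries spanned more than the difference between groups. The means were 188 ± 35.2, 196 ± 5.07 and 149.7 ± 21.6 (SD, n = 3). HIGH was 24.0% lower than LOW (log2 fold change -0.40, SE 0.17, limma unadjusted p = 0.0393, adjusted p = 0.639) and 19.8% lower than CON (-0.32, SE 0.17, adjusted p = 0.659). LOW and CON differed by 0.08 (95% interval -0.29 to 0.45). The HIGH versus CON value was -0.18 without CON replicate 3 and -0.44 without CON replicate 1. Over the 9 libraries HSPA8 varied most of the 6 members, with a coefficient of variation of 16.8% against 7.20% to 10.4% for the others.

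HSPH1 (ENSOARG00000011756, chromosome 10, 30044800 to 30065505) codes for HSP110, which exchanges the nucleotide of HSPA8 and helps it to dissolve aggregates. Its level was 43.6, 45.8 and 52.1 in CON, 47.1, 47.1 and 48.2 in LOW and 41.0, 42.6 and 45.3 in HIGH. HIGH lay below LOW without overlap but by 9.57% only (log2 fold change -0.15, SE 0.11, adjusted p = 0.672). The difference from CON was -0.13 (SE 0.11, adjusted p = 0.662), and -0.061 without CON replicate 3. The ratio of HSPA8 to HSPH1 within a library compares a chaperone with its exchange factor and is free of library scaling. It was 3.57, 3.96 and 4.33 in CON, 4.03, 4.19 and 4.15 in LOW and 3.20, 3.39 and 3.83 in HIGH. The 3 groups did not differ past the threshold (exact permutation test over 280 groupings, p = 0.0679, smallest possible p = 0.00357), and HIGH lay below LOW in all libraries.

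HSP90AA1 (ENSOARG00000003903, chromosome 18, 65639631 to 65644368), the stress-inducible cytosolic HSP90, was at 253, 269 and 305 in CON, 282, 289.7 and 285 in LOW and 253, 241 and 275 in HIGH. Its HIGH libraries lay below the LOW libraries and overlapped those of CON. The log2 fold change was -0.16 for HIGH versus LOW, -0.10 for HIGH versus CON and 0.05 for LOW versus CON (SE 0.13 each), with adjusted p-values of 0.684, 0.751 and 1.00. The HIGH versus CON value was -0.030 without CON replicate 3, -0.060 without HIGH replicate 2 and -0.16 without CON replicate 1.

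HSP90AB1 (ENSOARG00000009343, chromosome 20, 17829611 to 17833587), the constitutive cytosolic HSP90, was at 185, 172 and 148 in CON, 173, 168 and 156 in LOW and 187, 172 and 154 in HIGH. All 3 groups overlapped, and the differences were -0.02 for LOW versus CON, 0.03 for HIGH versus CON and 0.04 for HIGH versus LOW (SE 0.13 each). The 95% interval of HIGH versus LOW, -0.26 to 0.35, leaves room for a difference of either sign. In each group the library with replicate number 3 had the lowest HSP90AB1 value and the highest HSPA8 value. The ratio of HSP90AA1 to HSP90AB1, the inducible over the constitutive form, was 1.37, 1.56 and 2.06 in CON, 1.63, 1.73 and 1.82 in LOW and 1.35, 1.401 and 1.78 in HIGH. It did not differ past the threshold among groups (exact permutation test, p = 0.514). These were the only 2 ratios computed, and both p-values are unadjusted.

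HSPB1 (ENSOARG00000013748, chromosome 24, 34256177 to 34257915) codes for HSP27, the most widely expressed small heat shock protein, which also binds actin filaments. Its scaled FPKM was 159, 169 and 187 in CON, 159, 195 and 146 in LOW and 154, 178 and 192 in HIGH. The groups overlapped fully, with both the highest and the lowest library in LOW. The log2 fold changes were -0.05 for LOW versus CON, 0.02 for HIGH versus CON and 0.07 for HIGH versus LOW (SE 0.15 each).

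HSPB1 was the only member whose gene row summed more than 1 transcript. The assembled transcript TCONS_00175992 (34256177 to 34257890) made up 64.4% to 94.8% of the gene's FPKM, the annotated transcript of HSPB1 (34256246 to 34257717) 0.539% to 30.3%, and HSPB1-AS1 (34257376 to 34257915), named as antisense, 4.63% to 7.91%. The annotated transcript varied most. It was at 2.81, 51.3 and 17.1 in CON, 8.71, 9.497 and 23.9 in LOW and 0.832, 5.36 and 7.78 in HIGH, a 61.6-fold range over libraries whose summed HSPB1 level varied 1.34-fold. The difference between HIGH and CON in this transcript was -1.99 on the log2 scale (SE 1.09, adjusted p = 0.758 over 37225 transcripts, of which 0.0215% were called), within the spread between replicates. The 2 longer transcripts cover nearly the same span, so reads had to be divided between them by the assembly. The kit and counting are not stated to use strand, so it is not known whether reads of HSPB1 and its antisense partner were told apart. Without the antisense transcript the gene's log2 fold changes were -0.07, 0.01 and 0.08.

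**Figure D3:**
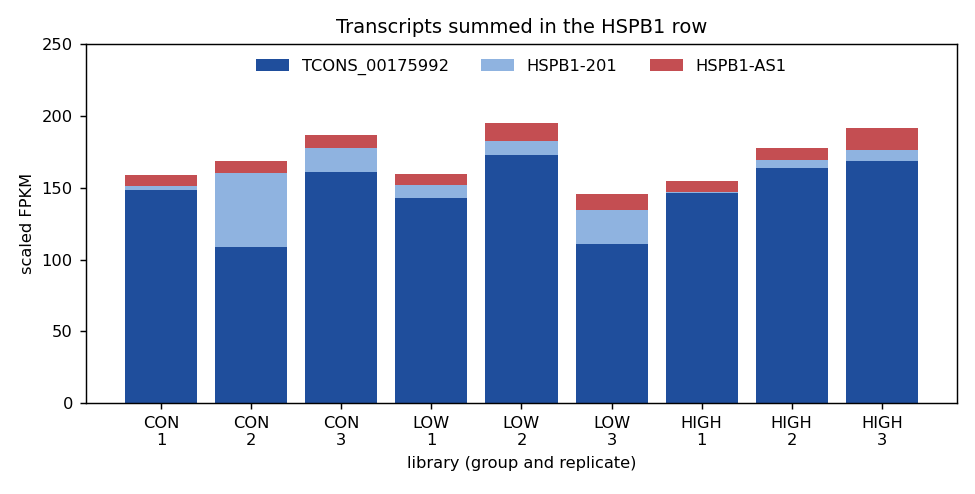
Scaled FPKM (vertical axis) of the 3 transcripts summed in the HSPB1 gene row, stacked for each of the 9 libraries. The height of the stack varies little (146 to 195), while the annotated transcript (pale blue) ranges from 0.832 in HIGH replicate 1 to 51.3 in CON replicate 2.

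HSPD1 (ENSOARG00000015476, chromosome 2, 198711632 to 198719647) codes for HSP60, which folds imported proteins in the mitochondrial matrix. Its scaled FPKM was 50.1, 47.3 and 51.6 in CON, 50.1, 48.1 and 49.1 in LOW and 38.0, 39.2 and 45.6 in HIGH. It was the only member whose HIGH libraries lay below all others. HIGH was 17.8% lower than CON (log2 fold change -0.28, SE 0.11, limma unadjusted p = 0.0295, adjusted p = 0.659) and 16.9% lower than LOW (-0.27, SE 0.11, unadjusted p = 0.0375, adjusted p = 0.639). CON and LOW differed by -0.02 (95% interval -0.26 to 0.23). The F test over the 3 groups gave HSPD1 the smallest unadjusted p of the 6 members, 0.0511, followed by HSPA8 at 0.0864, where 5.37% of all tested genes had a p under 0.05, and no adjusted p of a member was below 0.841.

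The lower HSPA8 values went with a lower share of small RNA genes in the FPKM table. The 3 libraries with the lowest shares, HIGH 1 (30.3%), HIGH 2 (50.7%) and CON 1 (52.1%), were also the 3 with the lowest HSPA8 (131, 144 and 156). HIGH 3, at a share of 68.2%, had an HSPA8 level of 173, below every LOW library. With the share as a covariate, a fit added after seeing the data, HSPA8 was -0.13 for HIGH versus LOW (unadjusted p = 0.352) and -0.15 for HIGH versus CON (unadjusted p = 0.206). HSPD1 was -0.16 (unadjusted p = 0.169) and -0.22 (unadjusted p = 0.0432) in the same fits. HSPH1 was -0.040 and -0.067 (unadjusted p = 0.712 and 0.473), and HSP90AA1 -0.062 and -0.045 (unadjusted p = 0.607 and 0.667). All 4 members whose HIGH libraries lay below LOW thus had HIGH versus LOW values that were closer to 0 by more than 1.5 times. In the same fit HSP90AB1 and HSPB1 moved further from 0. Their HIGH versus LOW values went from 0.04 to -0.14 and from 0.07 to 0.24. HSP90AB1 had its highest values in HIGH 1 (187) and CON 1 (185), while its value in HIGH 2 (172) lay among those of libraries with higher shares. The libraries with shares of 68.2% to 72.1% held its lowest values (148 to 168). HIGH 1 and HIGH 2 had the lowest shares, so the fit cannot tell the share from the glucose dose. The part of the share in these differences was not tested beyond this fit.

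**Figure D4:**
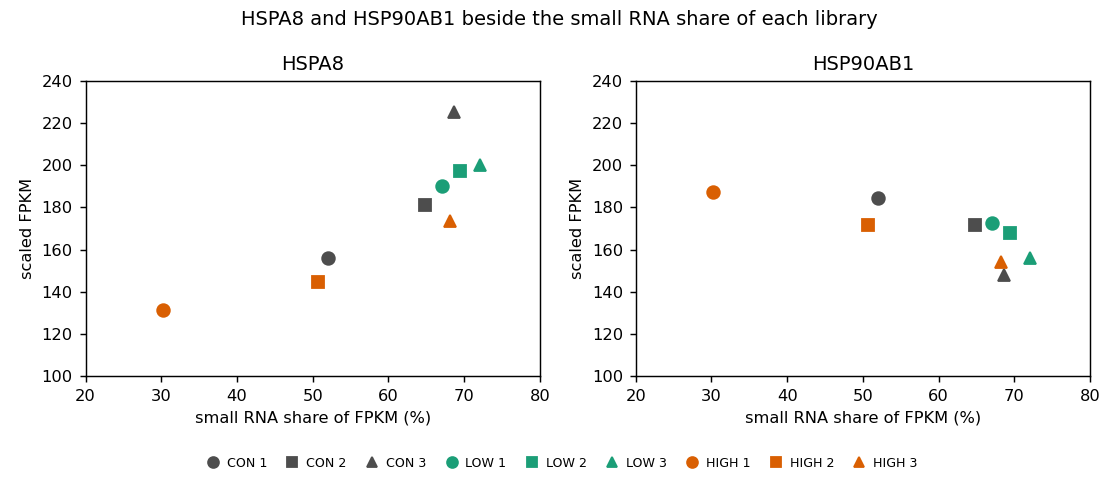
Scaled FPKM of HSPA8 (left) and HSP90AB1 (right) against the share of summed FPKM held by small RNA genes (percent), 1 point per library, with vertical axes from 100. HSPA8 is lowest in the 3 libraries with shares of 30.3% to 52.1%, and HSP90AB1 is highest in HIGH 1, the library with the lowest share.

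The wider chaperone network was read from 8 lists of 74 genes, of which 59 were tested. None passed the threshold in any comparison. At an unadjusted p under 0.05 there were 0 genes for LOW versus CON, 3 for HIGH versus CON (BAG3 and HSPB6 higher, HSPA9 lower) and 2 for HIGH versus LOW (BAG3 and HSPB6 higher), and the lowest adjusted p was 0.612. Those counts are 5.08% and 3.39% of the 59, below the 6.58% and 7.56% of all tested genes. The median log2 fold change of the 59 was -0.00, -0.13 and -0.06 in the 3 comparisons.

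Of the genes that belong to the HSP90 cycle, all 14 co-chaperones were tested, and 10 of them had a negative log2 fold change for HIGH versus CON and 12 for HIGH versus LOW, with medians of -0.26 and -0.25. Over all tested genes, 43.7% and 44.7% were negative. The abundant genes had medians of -0.09 and -0.09 and 25th percentiles of -0.25 and -0.25. None reached an unadjusted p under 0.05. FKBP5, an immunophilin that binds HSP90 in steroid receptor complexes and is the most abundant of them, was at 64.6, 79.0 and 98.5 in CON, 71.0, 80.3 and 77.0 in LOW and 56.0, 61.7 and 73.7 in HIGH (log2 fold change -0.33 against CON and -0.26 against LOW). CACYBP, which had the smallest p of the F test in this list, had differences of -0.35 and -0.38.

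The HSP70 partners held BAG3, which links HSP70 and HSPB proteins to autophagy and is a known HSF1 target. BAG3 was at 9.99, 7.52 and 3.67 in CON, 7.12, 7.77 and 5.89 in LOW and 16.5, 13.5 and 8.41 in HIGH. All HIGH libraries lay above LOW and overlapped CON (log2 fold change 0.91 against CON, unadjusted p = 0.0313, adjusted p = 0.659, and 0.83 against LOW, unadjusted p = 0.0448, adjusted p = 0.639). HIKESHI, the importer of HSP70 into the nucleus and the most abundant of this list, differed by -0.15 and -0.29. Among the 4 small heat shock proteins tested beside HSPB1, HSPB6, a partner of BAG3 known from muscle, was at 6.77, 3.63 and 2.64 in CON, 2.51, 3.69 and 3.31 in LOW and 14.8, 9.13 and 6.10 in HIGH. Its log2 fold change was 1.202 against CON (SE 0.38, unadjusted p = 0.0117, adjusted p = 0.659) and 1.56 against LOW (SE 0.38, unadjusted p = 0.00272, adjusted p = 0.612), and its HIGH libraries overlapped CON. In HIGH, HSPB6, BAG3 and COL1A1 were each highest in replicate 1 and lowest in replicate 3. The same order held in CON, where COL1A1 was at 31.5, 28.1 and 16.1, but not in LOW. The part of the replicate number or of stromal cells in this was not tested. CRYAB, the most abundant other small heat shock protein, stayed between 59.6 and 82.4 in all libraries.

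Of the other lists, the HSF relatives held 3 tested genes, HSF2, HSF4 and HSF5. HSF2, the most abundant of them, was at 15.5, 15.8 and 19.3 in CON, 16.3, 18.3 and 18.2 in LOW and 14.4, 15.2 and 16.6 in HIGH (log2 fold change -0.12 against CON and -0.19 against LOW). Among the other HSP70 and HSP110 genes, 4 of 7 had positive values for HIGH versus CON. HSPA1A, chosen after its values were seen, had the largest HIGH versus LOW value of the 59 genes, 2.16 on the log2 scale (SE 1.22, adjusted p = 0.641), with 1 LOW library near 0. HSPA4L, an HSP110 and the most abundant of them, differed by -0.02, and HSPA2, a testis-enriched HSP70 with the smallest p of the F test there, by 0.25. Of 10 J-domain proteins, 6 were negative for HIGH versus CON, with DNAJB6 at -0.25 and DNAJA2 at -0.34. Of 5 subunits of TRiC, the chaperonin that folds actin and tubulin, 4 were negative, with CCT8 at -0.40. Of 7 other mitochondrial chaperones, 5 were negative. For HIGH versus CON, 43.7% of all tested genes were negative, and the median of the abundant ones was -0.09. HSPA9, the mitochondrial HSP70 that hands proteins to HSP60, was at 36.5, 34.6 and 37.2 in CON, 35.8, 34.0 and 34.9 in LOW and 30.4, 30.5 and 31.9 in HIGH. HSPA9 had, as did HSPD1, all HIGH libraries below all others (log2 fold change against CON -0.22, SE 0.10, unadjusted p = 0.0466, adjusted p = 0.659).

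**Figure D5:**
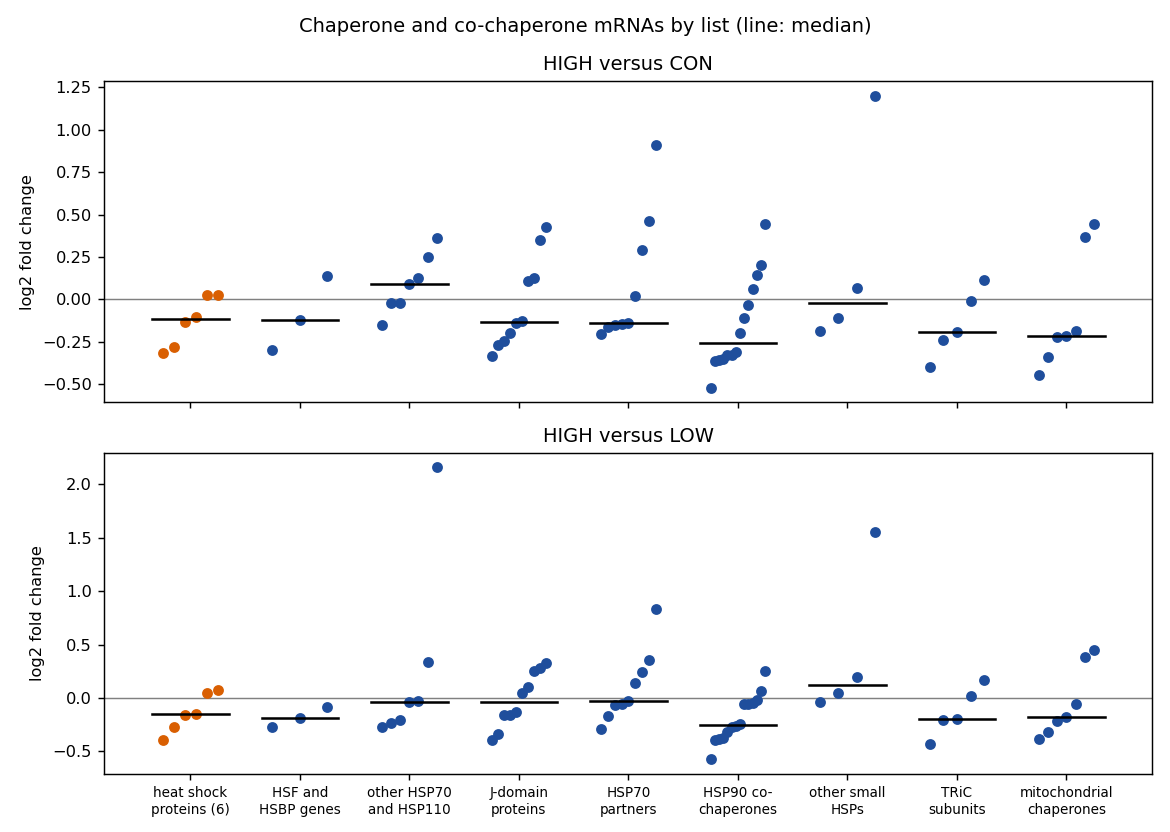
Log2 fold change (vertical axis) of the 6 members (orange) and of the 59 tested genes of 8 chaperone lists (blue) for HIGH versus CON (top) and HIGH versus LOW (bottom), with a line at each list's median. Most co-chaperones of HSP90 lie below 0, with medians of -0.26 and -0.25, and the points that stand highest are HSPB6 in the upper panel and HSPA1A and HSPB6 in the lower one.

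As a description of likeness, the mean centred profile of the 6 members over the 9 libraries was compared with that of 9135 other genes with a symbol and a mean FPKM of 1 or more. The closest 5 were FARSB (Pearson r = 0.985), PSMC4 (0.983), CDC23 (0.981), MCM3 (0.981) and FAAP24 (0.980). They code for a phenylalanyl-tRNA synthetase subunit, a proteasome ATPase, a subunit of the anaphase-promoting complex, a DNA helicase subunit and a DNA repair protein. All were lowest on average in HIGH, which follows from their choice by likeness to a profile that is lowest there. FARSB, for instance, was at 46.6 ± 6.35 in CON, 48.3 ± 2.69 in LOW and 38.9 ± 6.402 in HIGH (SD, n = 3). The points share their libraries and scaling, and their spread over libraries (SD of 0.21 to 0.24 on the log2 scale) was more than that of the member profile (0.093).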

How the data were processed

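RNA-seq libraries of ovine GCs (CON, LOW and HIGH, 3 each) were analysed from the tables the authors deposited. Per the study's methods, the authors aligned reads with Hisat2, assembled them with Stringtie, counted with HTSeq 0.6.0 and tested with DESeq2. The submitters' processing notes also name TopHat, TopHat2 and STAR 2.5.1b without their roles. The authors deposited FPKM per gene and transcript, and a count-like column that equals FPKM times genomic span times a library factor. That deposited column was treated as a rescaled score, not as reads. The genome build is not given in the sources used here.

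Libraries were brought to a common median over 11689 genes whose FPKM was never below 1. Genes that reached an FPKM of 0.1 in 3 libraries or more entered limma 3.58.1 (R 4.3.3) on log2(FPKM + 0.1), with all 9 libraries in 1 model, a variance trend fitted over expression level and Benjamini-Hochberg adjustment over 25531 genes. Fold changes are on this scale, which understates those of low genes. The procedure was tested on simulated data. Annotated transcripts of unnamed Ensembl genes carried another factor and were left out of the transcript fit. Same-numbered libraries deviated together for replicate 1 and, mainly between CON and HIGH, for replicate 3, but not for replicate 2. The main fit used no block, and results with a replicate block are given below. The members and lists were chosen with earlier results of these data known. From each list the most abundant gene, the one with the smallest F test p and any past the threshold were named, with TXNIP and the 5 genes of closest profile.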

Additional observations from a re-analysis of the deposited data

How the results depend on the processing

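Each of the 18 member differences was recomputed under 19 alternatives (another pseudocount, 2 filters, no scaling, all rows of a symbol summed, 2 groups only, a replicate block, each library left out, and, added after seeing the data, a span of 300 bases or more, HSPB1 without its antisense transcript and the small RNA share as a covariate). No value passed the threshold, with a lowest adjusted p of 0.181. Of the 342 values, only 219 could differ from the reported ones, since a filter, a block or a choice of groups does not alter a difference of means. Of these 219, the direction was the same in 191 and reversed in 28. The planned tests on read counts were not run, since the deposited counts are not reads, and summing rows changed nothing because each member had 1 row. Without scaling, the median for LOW versus CON was -0.11 in place of -0.00, HSPA8, HSPH1 and HSP90AA1 became -0.027, -0.092 and -0.051 for LOW versus CON, and HSP90AB1 and HSPB1 -0.019 and -0.022 for HIGH versus CON. With the small RNA share as a covariate, HSPA8, HSPH1 and HSP90AB1 became -0.026, -0.028 and 0.052 for LOW versus CON, and HSP90AB1 -0.087 for HIGH versus CON and -0.14 for HIGH versus LOW. With 1 library left out, LOW versus CON ranged from -0.046 to 0.22 for HSPA8, -0.041 to 0.089 for HSPH1, -0.0058 to 0.13 for HSP90AA1, -0.11 to 0.051 for HSP90AB1, -0.17 to 0.044 for HSPB1 and -0.050 to 0.014 for HSPD1. HIGH versus CON ranged from -0.067 to 0.098 for HSP90AB1 and -0.048 to 0.11 for HSPB1, and HIGH versus LOW from -0.025 to 0.12 and from -0.022 to 0.19.

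Same-numbered libraries correlated at -0.07 to 0.02 for replicate 2 and at 0.20 to 0.66 for the others. Libraries with different numbers correlated at -0.68 to 0.30. Deviations sum to 0 within each group, so the values near 0 for replicate 2 cannot decide on pairing. Replicates 1 and 3 thus shared deviations across groups by number. The study names no pairs, and the main fit used no block. With the replicate block, members at an unadjusted p under 0.05 for HIGH versus CON went from 1 to 2, all tested genes at that level from 1680 to 3705 (HIGH versus CON) and from 1930 to 4016 (HIGH versus LOW), and genes past the threshold for HIGH versus CON from 2 to 4, while HSPA8 for HIGH versus LOW had an unadjusted p of 0.00843 and an adjusted p of 0.248. Genes past the threshold, 2 in each comparison, ranged from 0 to 5 (LOW versus CON), 1 to 7 (HIGH versus CON) and 1 to 5 (HIGH versus LOW). Genes at an unadjusted p under 0.05 for HIGH versus CON came to 6281 without CON replicate 1 and 809 without HIGH replicate 1, and for HIGH versus LOW to 3960 without HIGH replicate 3 and 937 without HIGH replicate 1, while LOW versus CON had 1070 without CON replicate 1 against 498. With a filter at FPKM of 1 the 3 counts were 208, 1071 and 1233, since fewer genes were tested, and with only the 2 groups compared HIGH versus CON had 930 and HIGH versus LOW 3202. Members at that level for HIGH versus CON were then 0, with HSPD1 at a limma unadjusted p of 0.0816. Without scaling, the member count was 2 for HIGH versus CON and 1 for HIGH versus LOW. HSPD1 then had a limma unadjusted p of 0.0865 for HIGH versus LOW.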

Other observations

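HSPA1A, the inducible HSP70 whose near-identical copy HSPA1B makes its share of reads uncertain, was singled out after its values were seen. It was at 7.57, 9.94 and 13.9 in CON and 13.3, 11.4 and 8.99 in HIGH, and at 8.33 and 9.17 in LOW replicates 1 and 3 but 0.0989 in LOW replicate 2. HSPA1L, a relative in the HSP70 family, was at 1.01 in that library and at 0.650 to 1.04 in the others.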
